A study of Mus musculus with 8 samples.

Results

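Neuronal calcium sensors and their relatives were examined in the hypothalamus of mice that differed in weight gain. The set held 9 genes, Ncs1, Caln1, Calm2, Calm3, Hpca, Hpcal1, Vsnl1, Calb1 and Calb2, and was built by gene symbol around Ncs1 and Caln1. Ncs1 and Caln1 were selected on their higher intensity in high gainers on these same arrays, so their difference is given as a description with no test. The other 7 genes were added as relatives, and the question was whether the difference extended to them. Of the 33012 probes on the array, 14411 named exactly 1 gene (13840 genes), and 10 of these belonged to 8 of the 9 genes. Of these 10 probes, 8 probes of 7 genes had a value on all 7 arrays compared and were among the 11169 probes tested.

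Hypothalamus RNA came from male C57BL/6J mice, an inbred strain. Per the study they were put on high-fat diet as adults at 8 weeks of age, for 6 weeks. Low-fat chow followed for 2 weeks, in an amount restricted below what each mouse had eaten before the high-fat diet. The high-fat diet was then given for another 6 weeks. The 2 groups, high gainers and low gainers, ate the same diets and differed in how much weight they gained. For each group the RNA of 20 mice was combined into 1 pool, and each pool was hybridised to 4 arrays, named H1 to H4 for high gainers and L1 to L4 for low gainers. The arrays of a group are repeats of 1 pool, so every p-value compares 2 pools against the spread between arrays and says nothing of the spread between mice. Fewer cells of a type and less RNA per cell cannot be told apart in such pools.

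Calcium enters a neuron during activity and is read by proteins with EF-hands, helix-loop-helix motifs that bind the ion. Neuronal calcium sensors such as Ncs1 (also called frequenin), hippocalcin and the visinin-like proteins are small EF-hand proteins, most of them with a fatty acid anchor, that change shape on binding calcium and then act on channels, receptors and enzymes. Calmodulin is the general sensor of all cells and switches on kinases and phosphatases. Calbindin and calretinin mainly buffer calcium and are widely used to mark subsets of neurons, in the hypothalamus too.

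Low gainer array 2 stood apart and was left out of the comparison. Its intensities had a correlation across 5375 probes of 0.227 to 0.241 with each of the other 7 arrays, which had 0.941 to 0.987 among themselves over 11169 probes. Among those 7, low gainer array L1 was closer to each high gainer array than to L3 or L4. It had a correlation of 0.963 with L3 and 0.941 with L4, and of 0.966, 0.974, 0.987 and 0.980 with H1, H2, H3 and H4. Intensities of L1 and the mean of L3 and L4 lay at least 2-fold apart for 598 probes, 5.35% of those tested, although the RNA was the same. Of the marker genes of hypothalamic neurons, 10 of 16 had a value on all 7 arrays, with 1 above and 9 below 0, a median log2 difference of -0.25 and 0 called by limma, and their summed intensity was 40.1 to 47.3 on high gainer arrays and 44.9 to 55.6 on low gainer arrays. Sst (somatostatin), Oxt (oxytocin) and Cartpt, a feeding peptide precursor, had the highest mean intensity of that list, while Ghrh and Nkx2-1 had no value on any of the 7 arrays. Over all probes, limma with Benjamini-Hochberg adjustment over 11169 probes called 3 probes higher in high gainers (0.0269% of those tested) and 0 lower (0% of those tested). Without L1 the same fit called 94 higher and 77 lower. An unadjusted p under 0.05 was reached by 724 probes, and the methods' t-test left 0 probes after the same adjustment.

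The promoters of Ncs1 and Caln1, whose intensities were both higher in high gainers, are shown with that of Vsnl1, a measured sensor of the same family as Ncs1 whose intensities overlapped between the pools. Each is 300 bases long, 250 before and 50 after the transcription start, 5′ to 3′ on the strand of the gene, from the RefSeq sequence of assembly GRCm38.p6, and 6 of the 9 genes had an entry. Capitals mark GGGCGG, the GC box, on either strand, which was searched together with the cAMP response element half-site TGACG, the core promoter motif TATAAA and the E-box CACGTG. Positions are chr2:31245673-31245972 on the plus strand for Ncs1, chr5:130369208-130369507 on the plus strand for Caln1 and chr12:11436529-11436828 on the minus strand for Vsnl1.
Ncs1: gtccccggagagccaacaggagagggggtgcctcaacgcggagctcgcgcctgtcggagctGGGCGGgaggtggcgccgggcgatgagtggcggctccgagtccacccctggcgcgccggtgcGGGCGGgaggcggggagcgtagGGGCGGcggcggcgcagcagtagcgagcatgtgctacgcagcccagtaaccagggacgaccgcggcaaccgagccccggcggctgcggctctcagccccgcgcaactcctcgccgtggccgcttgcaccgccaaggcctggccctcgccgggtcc
Caln1: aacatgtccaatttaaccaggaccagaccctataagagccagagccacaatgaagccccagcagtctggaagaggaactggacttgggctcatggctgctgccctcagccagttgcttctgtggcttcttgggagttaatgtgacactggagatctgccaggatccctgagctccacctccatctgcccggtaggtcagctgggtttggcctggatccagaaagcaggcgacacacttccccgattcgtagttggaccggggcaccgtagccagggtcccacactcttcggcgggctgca
Vsnl1: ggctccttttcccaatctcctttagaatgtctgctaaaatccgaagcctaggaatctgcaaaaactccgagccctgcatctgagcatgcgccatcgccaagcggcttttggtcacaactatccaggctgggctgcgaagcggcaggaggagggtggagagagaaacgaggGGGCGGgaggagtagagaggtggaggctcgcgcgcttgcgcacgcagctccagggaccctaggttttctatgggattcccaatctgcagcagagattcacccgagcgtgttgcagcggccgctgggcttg
The Ncs1 promoter had 76% G and C, 40 CpG pairs and 3 GC boxes. The Caln1 promoter had 57.67% G and C, 8 CpG pairs and none of the 4 motifs in this window. The Vsnl1 promoter shown had 58.67% G and C, 18 CpG pairs and 1 GC box, and a second RefSeq start of Vsnl1, not shown, had 44.33% G and C, 6 CpG pairs and 0 GC boxes. Over all 32851 promoters of this length the median was 52.67% G and C and 7 CpG pairs, and 35.66% held a GC box, 20.81% TGACG, 13.62% TATAAA and 7.15% CACGTG. Ncs1 and Caln1 thus had no searched motif in common, and a match or its absence is only a description of these letters.

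Ncs1, which regulates dopamine D2 receptors, A-type potassium channels and a phosphatidylinositol 4-kinase, was the member with the widest gap between the pools. The brighter of its 2 probes had a normalised intensity of 2.25, 1.99, 1.58 and 1.51 on H1 to H4, against 1.19, 0.326 and 0.428 on L1, L3 and L4. Every high gainer array lay above every one of these low gainer arrays, but L1 was much nearer to the high gainer arrays than to L3 and L4. The mean was 1.83 ± 0.349 (SD, n = 4) in high gainers and 0.649 ± 0.474 (SD, n = 3) in low gainers, and the coefficient of variation was 19.0% in high gainers and 73.0% in low gainers. On the log2 scale after renewed quantile normalization the difference was 1.66, or 3.16-fold, the fifth highest of 11169 probes (rank 5). The high gainer mean was 1.53 times the intensity on L1, 5.62 times that on L3 and 4.28 times that on L4. In normalised log2 values the high gainer arrays exceeded L1 by 0.59 and L3 and L4 by 2.20, and L1 exceeded L3 and L4 by 1.61. The step within the low gainer pool was therefore wider than the step between high gainers and L1, and 43 of 11169 probes had L1 at least as far above L3 and L4. On L2 this probe had an intensity of 0.248.

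The other Ncs1 probe was dim. It had a value of 0.449, 0.463, 0.201 and 0.289 on H1 to H4 and of 0.239 on L4, and no value on L1, L3 or L2. The value on L4 lay inside the range of the high gainer arrays, and this probe entered no test. The study's methods set detection limits on signal over noise and on quality flags, but do not say whether these left the cells empty, so a missing value was not read as a low level.

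Caln1 encodes calneuron-1, an EF-hand protein of the Golgi membrane related to calmodulin, which in cells works on the same phosphatidylinositol 4-kinase as Ncs1 and opposes it. Its probe had an intensity of 1.34, 1.12, 1.12 and 1.11 on H1 to H4, against 0.829, 0.463 and 0.567 on L1, L3 and L4, with no value on L2. The groups did not overlap, and the order of the low gainer arrays, L1 above L4 above L3, was that of Ncs1. The mean was 1.17 ± 0.109 (SD, n = 4) in high gainers and 0.619 ± 0.189 (SD, n = 3) in low gainers, and the normalised log2 difference was 0.92, or 1.89-fold, at rank 42 of 11169. The high gainer mean was 1.42 times the intensity on L1, 2.54 times that on L3 and 2.07 times that on L4. High gainer arrays exceeded L1 by 0.49 and L3 and L4 by 1.13 in normalised log2 values, and L1 exceeded L3 and L4 by 0.64. A gap of that size or more between L1 and the other low gainer arrays was common, with 1229 of 11169 probes.

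**Figure D1:**
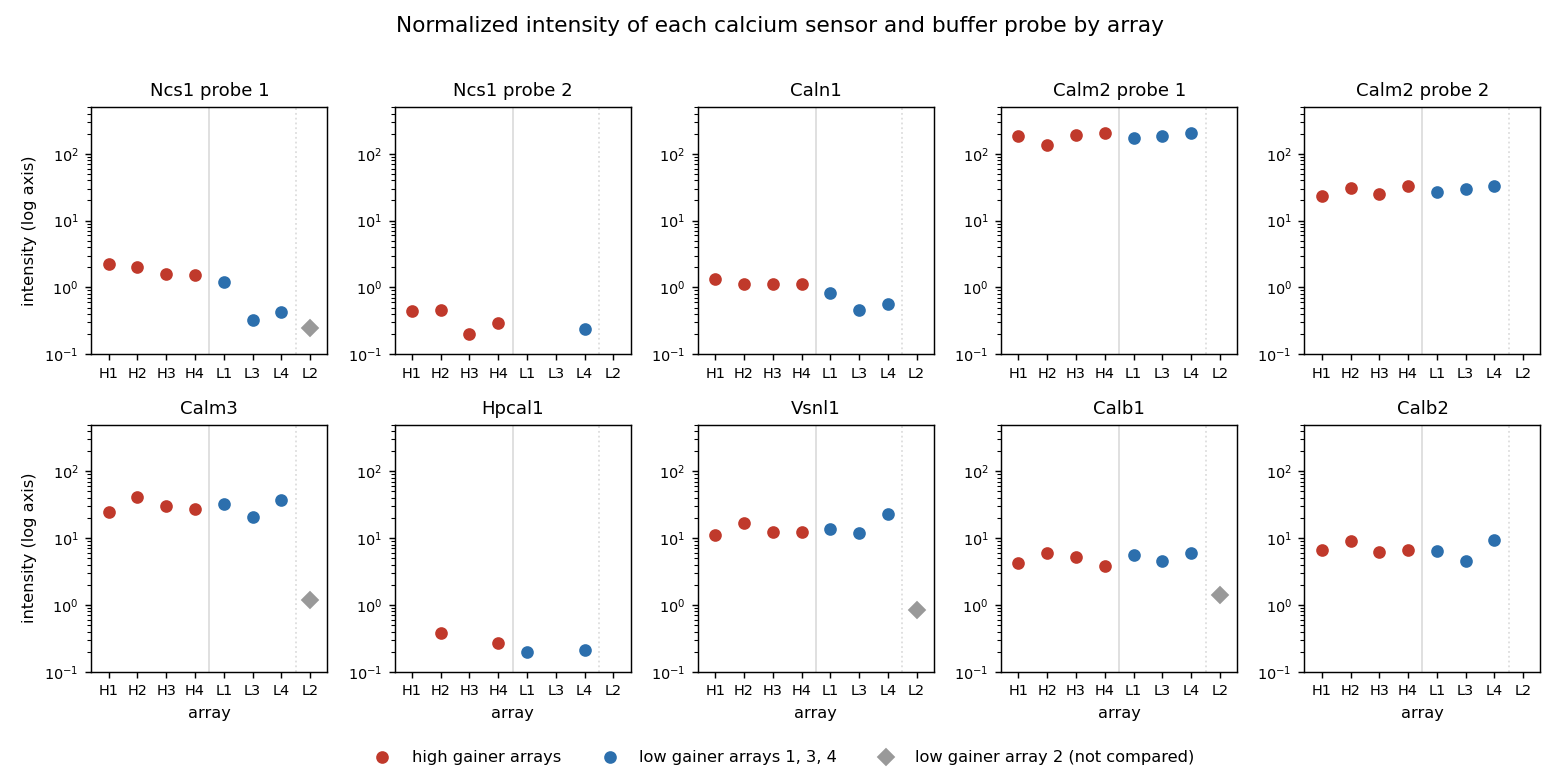
Normalised intensity (log axis) of each of the 10 probes on each array, with high gainer arrays H1 to H4 in red, low gainer arrays L1, L3 and L4 in blue and L2, which was not compared, as a grey diamond. A missing point is an array with no value. In Ncs1 probe 1 and Caln1 every red point lies above every blue point, with L1 the nearest blue point, and in the relatives that were tested the colours overlap.

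Ranks within an array need no scaling between arrays. For Ncs1 and Caln1 they come from the same values that chose these genes, so their higher ranks in high gainers are only a description. Percentiles were taken among the 13657 to 16873 probes that had a value on the array, so they depend on that number. Ncs1 was at rank 11082 from the top of 13657 probes on L3 and at rank 10682 of 16873 on L4. The percentile gap between L3 and L4 thus comes in part from the number of probes ranked. Ncs1 stood at percentile 70.4, 69.9, 63.5 and 65.6 on H1 to H4, against 60.3, 18.9 and 36.7 on L1, L3 and L4, and at 8.57 on L2. Caln1 stood at percentile 59.5, 57.9, 55.8 and 59.9 on H1 to H4, against 52.2, 29.3 and 43.3 on L1, L3 and L4. The mean percentile was 28.7 points higher in high gainers for Ncs1 and 16.7 points higher for Caln1. For the 6 tested relative probes the difference in mean percentile, over all values of an array, lay between -1.11 points (Calb1) and 1.77 points (Calb2). Hpcal1, which was not among those 6 and had values on 2 arrays of each pool, was 12.4 points higher in high gainers.

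**Figure D2:**
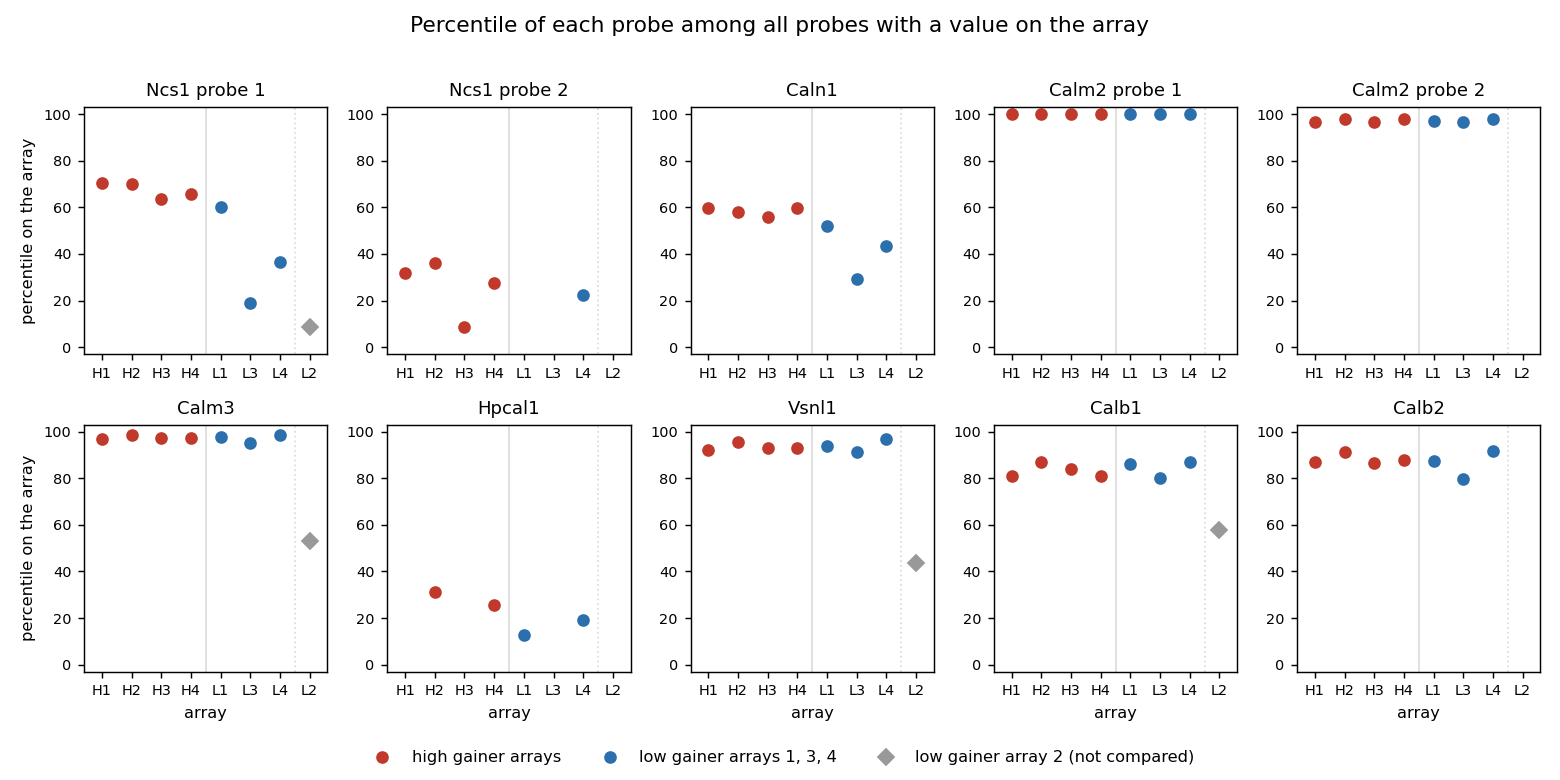
Percentile of each probe among all probes with a value on that array (0 lowest, 100 highest), with high gainer arrays in red, low gainer arrays L1, L3 and L4 in blue and L2 in grey. Ncs1 probe 1 spans 63.5 to 70.4 on high gainer arrays and 18.9 to 60.3 on L1, L3 and L4. Calm3 spans 96.7 to 98.5 and 95.1 to 98.3, near the top of the scale, where points are compressed.

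Calmodulin is made from several genes that encode the same protein, and 2 of them, Calm2 and Calm3, were in the set. The brighter probe of Calm2 had an intensity of 181.6, 135.0, 187.8 and 204.0 on H1 to H4, against 170.8, 187.3 and 201.2 on L1, L3 and L4. It was within the 34 highest probes of each of these 7 arrays, at rank 22, 34, 19 and 15 on H1 to H4 and at rank 24, 24 and 7 on L1, L3 and L4. The groups overlapped, with H2 the lowest array and H4 the highest. The normalised log2 difference was -0.16 (95% interval -0.57 to 0.25, adjusted p = 0.916, limma), on means of 177.1 ± 29.6 (SD, n = 4) in high gainers and 186.4 ± 15.2 (SD, n = 3) in low gainers. A second Calm2 probe had 23.4, 30.8, 24.9 and 33.2 on H1 to H4, against 27.0, 30.1 and 33.4 on L1, L3 and L4. Its groups overlapped too, and its difference was -0.09 (interval -0.45 to 0.28, adjusted p = 0.952, limma). Neither Calm2 probe had a value on L2.

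Calm3 had an intensity of 24.6, 41.5, 30.3 and 27.1 on H1 to H4, against 31.9, 20.9 and 37.1 on L1, L3 and L4, and 1.18 on L2. The highest value was on a high gainer array and the lowest on a low gainer array, with the other 5 mixed between them. The mean was 30.9 ± 7.48 (SD, n = 4) in high gainers and 30.0 ± 8.27 (SD, n = 3) in low gainers, a normalised log2 difference of 0.07 (interval -0.43 to 0.57, adjusted p = 0.972, limma).

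Vsnl1 (visinin-like protein 1, also VILIP-1) is a myristoylated sensor of the same family as Ncs1 and abundant in neurons. It had 10.97, 16.7, 12.5 and 12.2 on H1 to H4, against 13.7, 11.8 and 23.0 on L1, L3 and L4, and 0.827 on L2. The highest value was on L4, and L3 lay inside the range of the high gainer arrays. The mean was 13.1 ± 2.51 (SD, n = 4) in high gainers and 16.2 ± 6.00 (SD, n = 3) in low gainers, a normalised log2 difference of -0.27 (interval -0.78 to 0.24, adjusted p = 0.873, limma). Hpcal1, hippocalcin-like protein 1 (VILIP-3), had 0.385 on H2 and 0.270 on H4, against 0.196 on L1 and 0.214 on L4, and no value elsewhere. The 2 high gainer values of Hpcal1 lay above its 2 low gainer values. Its difference with missing values left out was 0.57 on the log2 scale (adjusted p = 0.941, limma over 14082 probes) and rests on 4 arrays. Hpca, hippocalcin, which is best known from hippocampal pyramidal cells, had no probe of 1 gene and was not analysed here.

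The buffers overlapped as well. Calb1, calbindin-D28k, had 4.21, 6.02, 5.24 and 3.81 on H1 to H4, against 5.63, 4.54 and 6.07 on L1, L3 and L4, and 1.42 on L2. Its normalised log2 difference was -0.18 (interval -0.60 to 0.25, adjusted p = 0.914, limma), on means of 4.82 ± 1.00 (SD, n = 4) in high gainers and 5.42 ± 0.787 (SD, n = 3) in low gainers. Low gainer arrays held both the highest and the third highest of its 7 values and high gainer arrays the lowest. Calb2, calretinin, had 6.66, 9.10, 6.29 and 6.54 on H1 to H4, against 6.44, 4.48 and 9.32 on L1, L3 and L4, with no value on L2. Here L4 was highest and L3 lowest, so the low gainer arrays enclosed all 4 high gainer arrays. The difference was 0.13 (interval -0.37 to 0.63, adjusted p = 0.951, limma), on means of 7.15 ± 1.31 (SD, n = 4) in high gainers and 6.75 ± 2.43 (SD, n = 3) in low gainers.

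**Figure D3:**
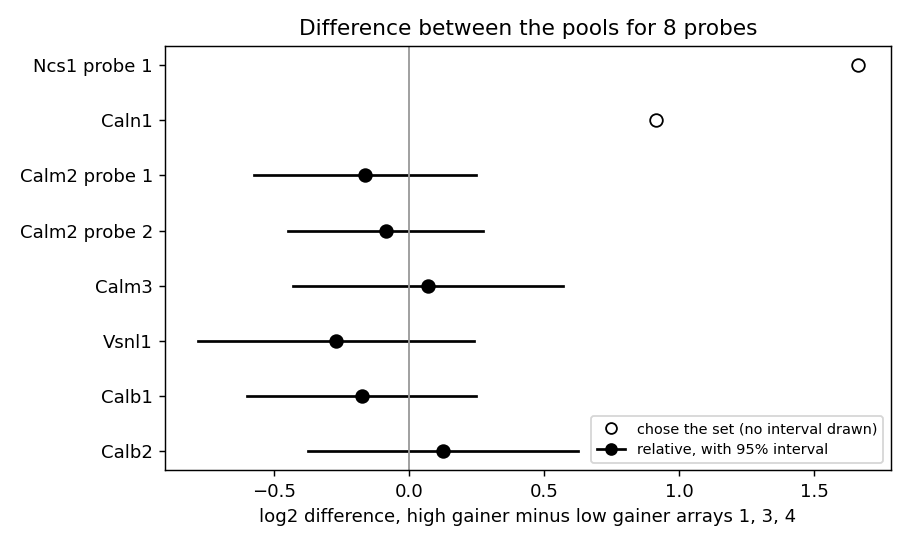
Normalised log2 difference, high gainers minus low gainer arrays L1, L3 and L4, for the 8 probes tested. Open circles are Ncs1 (1.66) and Caln1 (0.92), which chose the set and have no interval, filled circles are relatives with 95% intervals from limma, and each of those 6 intervals holds 0.

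Among the 6 relative probes, limma called 0 and the methods' t-test 0, and 0 reached an unadjusted p under 0.05 with either, with log2 differences of -0.27 to 0.13. Over the 8 probes the median difference was -0.01, with 4 above and 4 below 0, and over all 11169 probes it was -0.00, with 49.6% above 0. Arrays of the pools did not overlap for 2 of the 8 probes, Ncs1 and Caln1, which were chosen for it. Over all probes, every high gainer array lay above L1, L3 and L4 for 222 probes (1.99%) and below them for 273 probes (2.44%). The highest upper bound of the relatives' intervals was 0.63, for Calb2, and Caln1 had a difference of 0.92. Whether a relative differed from Ncs1 or Caln1 in its response was not tested, since those genes had been chosen for their difference. An adjusted p above 0.05 does not show that a relative was equal in the pools, and the intervals reach a log2 difference of -0.78 on the low side.

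An order of arrays recurred among the relatives, seen after their values were known. In Calm3, Vsnl1, Calb1 and Calb2, H2 was the highest high gainer array while L4 was the highest and L3 the lowest of the low gainer arrays, in deposited and in renormalised values. Over all 11169 probes this combination held for 8.83% in deposited and 6.03% in renormalised values. Ncs1, Caln1 and both Calm2 probes did not have it. Ncs1 and Caln1 had L3 as the lowest of the low gainer arrays in common with these 4 genes, but had L1 rather than L4 as the highest low gainer array.

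**Figure D4:**
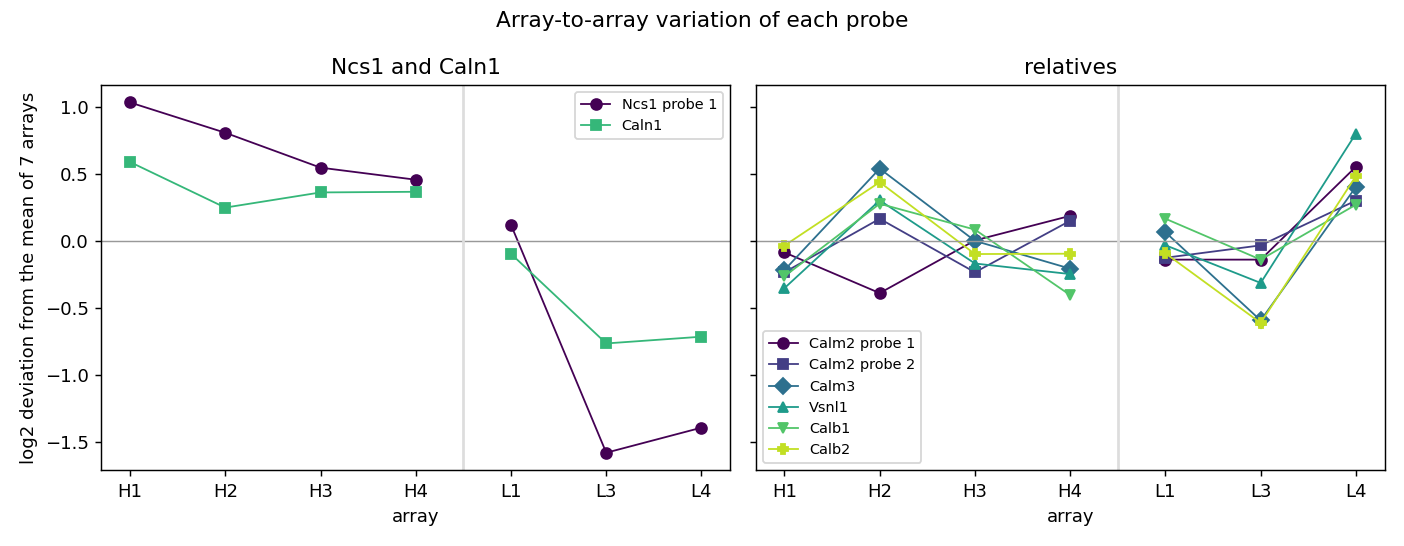
Log2 deviation of each probe from its own mean over the 7 arrays, with Ncs1 and Caln1 on the left panel and the 6 relative probes on the right, high gainer arrays H1 to H4 left of low gainer arrays L1, L3 and L4. Lines join the points of 1 probe only as a guide. On the left both probes have L1 above L3 and L4, and on the right L4 is the highest low gainer array for each probe.

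Likeness to the 2 leading genes was measured as the root mean square difference between log2 deviations from the mean over the 7 arrays, among 6331 other probes of 1 gene. Caln1 was 11th in likeness to Ncs1 (rank 11, 0.496), and Ncs1 was at rank 1697 in likeness to Caln1. As both were chosen for being higher on the high gainer arrays, these ranks and the lower ones of the relatives follow in part from the choice and support nothing. The relatives stood at rank 2176 to 5438 for Ncs1 and 3086 to 5726 for Caln1. The 5 probes nearest to Ncs1 were those of Rdm1 (0.334), Pde10a (0.345), Dpp6 (0.377), Rrm2b (0.407) and Hnrnpl (0.423). Pde10a is a cyclic nucleotide phosphodiesterase best known from striatum, and Dpp6 is an accessory subunit of A-type potassium channels. Pde10a had a mean intensity of 2.18 in high gainers, against 1.94, 0.602 and 0.922 on L1, L3 and L4. Dpp6 had a mean of 3.24 in high gainers, against 3.13, 1.03 and 1.05 on L1, L3 and L4. In both, L1 was close to the high gainer mean and L3 and L4 far below it. The 5 probes nearest to Caln1 were those of Lypla2 (0.113), Canx (0.165), Synpr (0.196), Fras1 (0.201) and Cbln2 (0.201). Canx, a chaperone of the endoplasmic reticulum, had a mean of 39.6 in high gainers, against 30.2, 21.3 and 23.0 on L1, L3 and L4. Synpr, a synaptic vesicle protein, had a mean of 31.1 in high gainers, against 28.9, 19.0 and 17.5 on L1, L3 and L4.

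The wider family of neuronal calcium sensors was followed through a list of 13 genes, of which 11 had a probe and 4 were tested, with 0 called, 3 above and 1 below 0. Ncs1, chosen for its difference, was among those above 0. The median of 0.13 turned to -0.036 without L1 and to -0.049 without L3, and was 0.48 without L4. Besides Ncs1 and Vsnl1 the tested genes were Kcnip4, a subunit that modulates A-type potassium channels, and Ncald (neurocalcin delta). Kcnip4 had 2.01, 2.17, 1.83 and 2.13 on H1 to H4, against 1.31, 1.13 and 3.12 on L1, L3 and L4, a normalised log2 difference of 0.26. Ncald had 1.96, 2.29, 1.84 and 2.09 on H1 to H4, against 1.62, 1.56 and 3.13 on L1, L3 and L4, a difference of 0.01. In both genes L1 and L3 lay below all high gainer arrays and L4 above them, so the groups overlapped through 1 array. Kcnip2, another channel-interacting protein, had 0.391, 0.465, 0.214 and 0.264 on H1 to H4 and 0.259 on L4, with no value on L1 or L3, the same arrays on which the dim Ncs1 probe had a value. Kcnip3, which also acts as the transcription repressor DREAM, had values on 6 arrays, 0.606, 0.400 and 0.209 on H2, H3 and H4, against 0.207, 0.201 and 0.392 on L1, L3 and L4. Hpcal4 had a value on 3 of the 7 arrays, the photoreceptor proteins Guca1a and Guca1b on 2 each, and Rcvrn (recoverin) on 0.

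Of the 6 genes in the calneuron and calcium-binding protein family all had a probe, but Caln1 was the 1 tested. Cabp1, a calmodulin-like regulator of calcium channels, had 0.315, 0.229, 0.187 and 0.222 on H1 to H4, against 0.208 and 0.238 on L1 and L4, with no value on L3. These ranges overlapped. Cabp7, a close relative also called calneuron-2, had 0.241 on H2, against 0.137 on L4, and 1.37 on L2. The values are too few to say whether the Caln1 difference was shared within its family.

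Over 10 lists of calcium signalling genes, 57 of 127 genes were tested and 0 were called by limma, with 33 above and 24 below 0 and a median log2 difference of 0.02. Of the 55 tested genes other than Ncs1 and Caln1, 0 reached an unadjusted p under 0.05. Every high gainer array lay above L1, L3 and L4 for 1 of these 55 genes, Drd2 (1.82%, beside 1.99% over all probes), and below them for 0 of all 57 (beside 2.44%). Drd2, the dopamine D2 receptor that Ncs1 binds, had 1.68, 1.59, 1.24 and 1.29 on H1 to H4, against 1.23, 0.788 and 1.17 on L1, L3 and L4. H3 at 1.24 and L1 at 1.23 were almost equal, and the normalised log2 difference was 0.43 (interval -0.02 to 0.89, adjusted p = 0.756, limma). Of 12 partners of Ncs1, 4 were tested, all above 0 with a median of 0.24. Besides Drd2 these were the potassium channel Kcnd3 (0.25), the small GTPase Arf1 (0.22) and the lipid kinase Pi4ka (0.07). The kinase isoform named as the target of Ncs1, Pi4kb, had values on some arrays and was not tested.

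Downstream of calmodulin, 12 of 20 kinase and calcineurin genes were tested, 10 above and 2 below 0, with a median log2 difference of 0.12. Ppp3r1, the regulatory subunit of the phosphatase calcineurin, had 0.43 and Camk2g, a calmodulin-dependent kinase subunit, 0.35, and at the other end the kinase Camk1 and the calcineurin inhibitor Rcan1 each had -0.18. For 8 of 17 other calmodulin-binding genes the median was 0.00, with 4 above and 4 below 0. Dapk1 (0.24) and Gap43 (0.04) were highest in that list, and Adcy8 (-0.20) and Pcp4 (-0.16) were lowest. Of 18 calcium pumps, exchangers and store proteins 3 were tested, with log2 differences of 0.50 for Calr (calreticulin, a store protein), 0.36 for Atp2b2 (a plasma membrane pump) and 0.30 for Stim1 (the store sensor). For all of these genes the adjusted p was at or above 0.756 by limma.

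The remaining EF-hand lists were made up of S100 proteins, a mixed EF-hand group, calmodulins and buffers. The S100 list had 6 of 11 genes tested, 1 above and 5 below 0, with a median of -0.24. S100a11 (0.01) and S100a16 (-0.06) were its highest members, and S100a10 (-0.55) and S100a1 (-0.32) its lowest. Of 17 other EF-hand genes 12 were tested, 5 above and 7 below 0, with a median of -0.10, from Micu2 (0.54) and Rcn2 (0.33) to Efhd1 (-0.36) and Chp1 (-0.34). Calmodulin genes had 3 of 7 tested and a median of -0.16, with Calml4 at -0.37 beside Calm2 and Calm3. Buffers had 4 of 6 tested, 1 above and 3 below 0, with a median of -0.05, and Pvalb (parvalbumin) at -0.01 and Scgn (secretagogin) at -0.09. None of these genes was called. Without L4 the median turned to 0.035 for the other EF-hand genes and to 0.067 for the calmodulins.

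**Figure D5:**
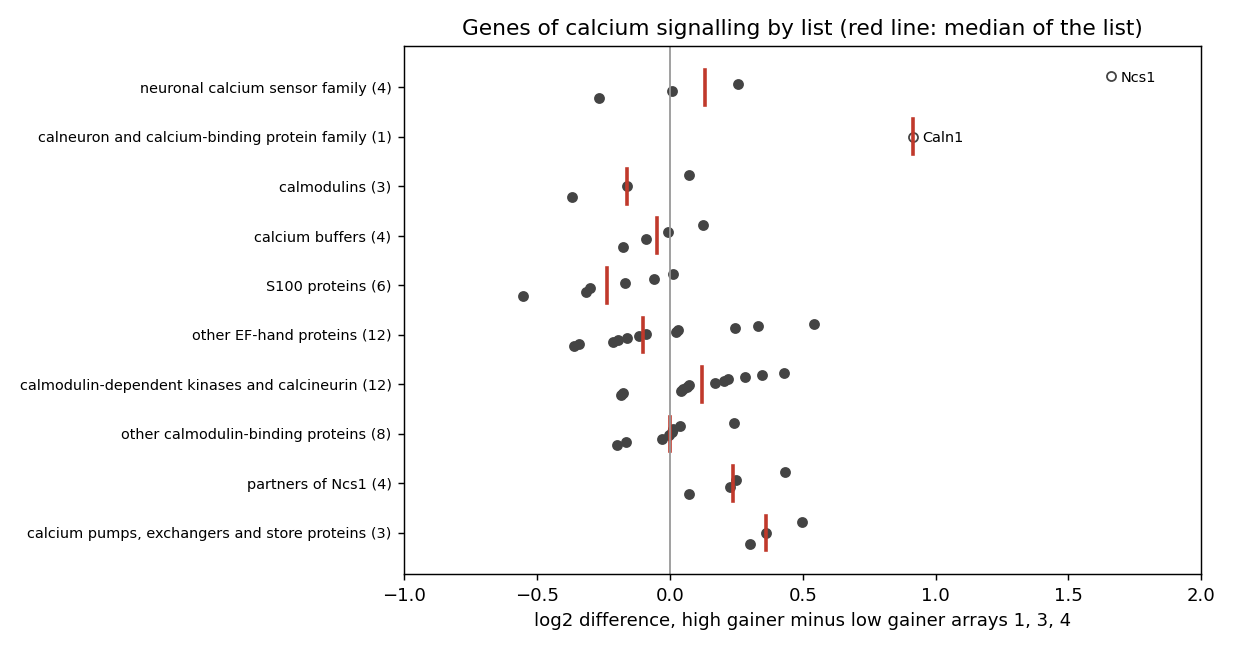
Normalised log2 difference, high gainers minus low gainer arrays L1, L3 and L4, of the tested genes of 10 calcium signalling lists, with the number tested in brackets and a red line at the list's median. Open circles are Ncs1 and Caln1, which chose the set, and the other genes lie between -0.55 (S100a10) and 0.54 (Micu2).

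Among the marker lists of other cells, calls were confined to the anterior pituitary, with 0 called by limma in the oligodendrocyte, neuron, cortex and astrocyte lists. Of 12 anterior pituitary genes 3 were tested and limma called all 3 higher in high gainers, Gh (growth hormone) by 3.48, Cga (the common hormone subunit) by 2.89 and Prl (prolactin) by 2.67 on the log2 scale. Their summed intensity was 8.30 to 10.4 on high gainer arrays and 0.837 to 1.38 on L1, L3 and L4, with Ghrhr and Pitx1 at no value. The pituitary sum was 0.996 on L1, 1.38 on L3 and 0.837 on L4. Oligodendrocyte markers had 5 of 7 genes tested, all above 0, with a median of 0.52. Their summed intensity was 47.2 to 75.2 on high gainer arrays and 12.4 to 41.4 on low gainer arrays. Most of this sum was Mbp, with 36.1 on L1 and 9.68 on L3. Groups did not overlap for 2 of the 5, Mag and Mbp, beside 1.99% over all probes. On L4, Mog (2.74) and Cldn11 (3.06) lay above every high gainer array. The oligodendrocyte sum was 41.1 on L1, 12.4 on L3 and 41.4 on L4. Ncs1 and Caln1 also had L3 as the lowest of these, and so did Calm3, Vsnl1, Calb1 and Calb2. The near-equal sums on L1 and L4 rest on Mbp, which had 33.3 on L4. Each of the other tested oligodendrocyte markers was lower on L1 than on L4, with Mog at 1.93 and Cldn11 at 1.09 on L1. General neuron markers, 6 of 11 tested, had 3 above and 3 below 0 and a sum of 121.2 to 152.0 on high gainer arrays and 138.9 to 146.7 on low gainer arrays. For 4 of 12 markers of cortex, hippocampus and striatum, 3 above and 1 below 0, the median was 0.14. Their sum was 18.3 to 22.5 on high gainer arrays and 16.5 to 20.0 on low gainer arrays. For 1 of these 4, Neurod6, every high gainer array lay below L1, L3 and L4, beside 2.44% over all probes. Its log2 difference was -0.67 (adjusted p = 0.750, limma). The astrocyte list, 4 of 7 tested, had a median of 0.05 and a sum of 183.7 to 214.9 on high gainer arrays and 169.3 to 266.0 on low gainer arrays. The part of these markers in the Ncs1 and Caln1 values was not tested.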

How the data were processed

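RNA of each pool was labelled with digoxigenin and hybridised to the Applied Biosystems mouse genome survey array, read in 1 colour by chemiluminescence. The authors normalised signals across arrays by a quantile method, and the deposited values are intensities on a linear scale. The study's methods kept features above a signal-to-noise limit and below a quality flag limit for testing. Whether that filter left the empty cells, and the genome build, were not given in the sources used here. Deposited arrays had a median intensity of 0.714 to 1.05, over 13657 to 16873 values each. Medians over unlike sets of probes do not show whether the arrays shared 1 distribution. Log2 intensities of the 11169 probes measured on all 7 arrays were quantile normalised again. A probe with an empty cell was left out of that fit. Levels given per array are deposited intensities, and differences are renormalised log2 values.

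Groups came from the labels. High gainer arrays 1 to 4 were compared with low gainer arrays 1, 3 and 4 by limma 3.58.1 in R 4.3.3 (lmFit, and eBayes with a trend), with Benjamini-Hochberg adjustment over all 11169 probes and a threshold of 0.05. The methods' t-test (an analysis of variance of the 2 groups at a p of 0.01 and a 1.5-fold difference) was run on the same values. The fit was checked on 5 simulated data sets, each with 200 of 11169 probes changed and noise drawn independently for each probe. It called on average 48% of 2-fold and 93.4% of 4-fold changes. Variation shared by the probes of an array was left out, and the real data may hold fewer changes, so these shares may be too high. Many 2-fold changes would thus be missed. No background signal was used, and precision is limited by how few arrays there were.

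Probes were named from the platform annotation of the array. Of 14411 probes with 1 gene, 14402 matched RefSeq of GRCm38.p6 by gene identifier and 0 symbols changed, and 247 probes with several genes named none. Where a gene of a list had several probes, the brightest was used. The members and the gene lists were chosen with earlier results of these data known. Named genes were all members, the 5 probes nearest in pattern to Ncs1 and to Caln1, up to 2 genes at each end of each calcium list, and the brightest markers. Genes of the sensor and calneuron families with values on some arrays were added after their values were seen. Alternatives were all 8 arrays, median centring, cyclic loess, no further normalization, a brightness filter, missing values left out, a pseudocount, no trend, array weights, the replicate block and leaving out each array.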

Additional observations from a re-analysis of the deposited data

Results flagged for a closer look

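In 13 groups of 4 arrays the highest or lowest value was set against Dixon's critical value, which chance passes in about 1 in 20 groups, and 2 values passed. Caln1 had an intensity of 1.34 on high gainer array 1, far above the other 3 high gainer arrays, with a gap of 0.960 of the group's range. Calb2 had an intensity of 9.10 on high gainer array 2, with a gap of 0.871 of the range, and low gainer array 4 had 9.32. Both values stayed in the means given above.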

How the results depend on the processing

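Without low gainer array 1, limma called 94 probes higher and 77 lower in high gainers (171 in all), and leaving out the other arrays one at a time gave as few as 2 in all, 2 higher and 0 lower. Member probes called ranged from 0 to 2 in these fits, and the 2 were Ncs1 and Caln1 without low gainer array 1, the genes chosen for this difference, so their calls support nothing. With all 8 arrays 1 probe was called, higher in high gainers, the median over member probes was 0.85, 1 member probe did not overlap, Vsnl1 (0.63) and Calb1 (0.14) turned above 0 and Calm3 moved to 1.07. Low gainer array 2, which stood apart, enters there, and only members with a value on it are included. Among the brightest 50% of probes 1 was called, higher in high gainers, and 0 member probes did not overlap, since Ncs1 and Caln1 were not among them. Median centring and the pseudocount each called 1 probe lower, and the methods' t-test called 0 in all and 0 higher after Benjamini-Hochberg adjustment, against 9 higher and 10 lower at the methods' own p and fold threshold. With the replicate block limma called 9 probes, 5 higher and 4 lower, among them 1 member probe, Ncs1, again one chosen for its difference, and Calm3 (-0.10) and Calb2 (-0.0028) turned below 0. The labels do not say that a number pairs arrays. Deviations of same-numbered arrays had correlations of -0.20, 0.13 and -0.14, and those of other pairs ran from -0.52 to 0.45. So few values cannot tell whether same-numbered arrays share more than a number.

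Leaving out each array in turn gave log2 differences of -0.20 to 0.30 for Calm3, -0.14 to 0.41 for Calb2, -0.28 to 0.067 for Calm2 probe 1, -0.17 to 0.043 for Calm2 probe 2 and -0.50 to 0.055 for Vsnl1. The sign turned without high gainer array 2 or low gainer array 3 for Calm3 and Calb2, and without low gainer array 4 for the others. No relative was called under any alternative run. Ncs1 stayed above 0 in the 16 alternatives that included it (1.33 to 2.20), as did Caln1 in 15 (0.74 to 1.13). Both genes were chosen for being higher on these same arrays, so their steady sign supports nothing. Chosen after the data were seen, the median over member probes was -0.12 without Ncs1 and Caln1, 0.08 against low gainer array 1 alone and -0.01 against arrays 3 and 4. Unless stated, the cause was not tested. The number of arrays and the dim signal of Hpcal1 and of 1 Ncs1 probe limit what could be measured.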
